A study of Mus musculus with 2 samples.

Results

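The genes of oxidative phosphorylation were measured in whole mouse embryos of embryonic day 9.5, in 2 libraries of single cells. Members were the rows whose symbols name structural subunits of the respiratory chain complexes I to IV or of ATP synthase (complex V), in either genome, with pseudogene-style symbols and the assembly factors of complex I left out. This gave 98 of the 32285 genes listed, 13 from the mitochondrial genome and 85 from the nucleus. By complex, the nuclear members numbered 38 in complex I, 4 in complex II, 8 in complex III, 18 in complex IV and 17 in complex V, and the mitochondrial members 7, none, 1, 3 and 2. The grouping follows gene symbols, so Ndufa4, whose protein is now placed in complex IV, was counted with complex I.

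One library came from wild-type embryos and the other from embryos with a germline knockout of Usb1 (Usb1-null), made by CRISPR/Cas9 deletion and obtained from heterozygous intercrosses. The study places the deletion at exon 2 in its methods and at exons 1 and 2 elsewhere. Usb1 is an exonuclease that shortens the tail of the spliceosomal U6 snRNA. Dissociated cells were captured in droplets with a chemistry that reads transcripts near their 3′ end and tags every captured molecule with a barcode of its own (UMI). How many embryos were pooled is not stated, and a germline knockout affects every cell of the embryo. The study found Usb1-null embryos of this embryonic day to be much smaller than wild-type ones. A difference in growth or stage therefore cannot be told apart from genotype here. With 1 library per group no test was possible: every difference is between these 2 libraries, has no replicate check, and carries a 95% interval for counting error only.

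The 15161 wild-type cells that passed the cell filter held 21732106 UMIs and the 13018 Usb1-null cells held 33383886. The median per cell was 1243 UMIs for wild-type and 2300 for Usb1-null cells. The libraries also differed in sex. Xist, transcribed from the inactive X chromosome, had 53276 UMIs in the wild-type and 26 in the Usb1-null library, whereas 4 Y-linked genes had 14 and 23463, so sex and genotype cannot be told apart. Usb1 had 68 and 47 UMIs, whose positions in the gene the counts do not give, so they do not check the labels. The 2 libraries shared 61 cell barcodes, 0.402% of the wild-type and 0.468% of the Usb1-null barcodes. The labels name the molecule as nuclear RNA although the protocol describes whole cells. The nuclear long noncoding RNA Malat1 stood at 7678 and 8261 CPM, the UMIs of a gene scaled to a library total of 1000000. Other values also bear on which RNA was captured. Protein-coding genes spanning at least 100000 bases, introns included, held 34.2% of the wild-type and 34.6% of the Usb1-null UMIs. Cytoplasmic ribosomal protein genes held 2.58% and 1.81%, and the mitochondrial members 0.436% and 0.191%. Whether whole cells or nuclei were captured was not tested. Levels of the mitochondrial genes are therefore shares of the captured RNA and may not stand for levels inside whole cells.

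Oxidative phosphorylation is the work of 5 complexes in the inner mitochondrial membrane. Complexes I, III and IV pass electrons from NADH to oxygen and pump protons, complex II feeds electrons in from the citrate cycle, and complex V uses the proton gradient to make ATP. All but complex II mix subunits made inside the mitochondrion from mitochondrial DNA with subunits transcribed in the nucleus and imported, so their assembly draws on both genomes. The mitochondrial genes are transcribed as long polycistronic RNAs from both strands, and most are on one strand.

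Members of both genomes took a smaller share of the Usb1-null library, and the mitochondrial genes differed more. The 13 mitochondrial genes together had 94634 UMIs, or 4355 CPM (4327 to 4382), in the wild-type and 63754 UMIs, or 1910 CPM (1895 to 1925), in the Usb1-null library, a ratio of 0.439 (0.434 to 0.443). The 85 nuclear genes had 105846 UMIs, or 4870 CPM (4841 to 4900), and 120888 UMIs, or 3621 CPM (3601 to 3642), a ratio of 0.744 (0.737 to 0.750). For each nuclear UMI there were 0.894 mitochondrial UMIs in the wild-type and 0.527 in the Usb1-null library, a ratio of 0.590. This ratio within a library does not depend on the library total. In these sums, fewer cells of a type and less RNA per cell cannot be told apart.

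Among the mitochondrial genes, 11 of 13 were lower in the Usb1-null library and 2 were higher, all past the fold that is used here for a call. With 1 CPM added to both values, a gene was called lower when its Usb1-null level was 0.8 or less of the wild-type level, and called higher when it was above by at least 25%. The genes of complex IV, cytochrome c oxidase, were the most alike. mt-Co3 stood at 903.1 CPM in the wild-type and 360.9 CPM in the Usb1-null library, a ratio of 0.3996 (0.391 to 0.409). mt-Co2, which receives electrons from cytochrome c, stood at 770.9 and 309.0 CPM, and mt-Co1, which holds the site where oxygen is reduced, at 469.1 and 194.6 CPM. These 3 genes and mt-Atp6 were the 4 most abundant members of either genome in the wild-type library. mt-Atp6, the subunit a of ATP synthase that forms the proton path, was the highest member, with 1117 and 430.0 CPM, a ratio of 0.385 (0.377 to 0.393).

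mt-Cytb, the only mitochondrial subunit of complex III, stood at 268.5 and 136.7 CPM. The 7 genes of complex I spread more widely. mt-Nd4 had 259.6 CPM in the wild-type and 110.0 CPM in the Usb1-null library (ratio 0.424), mt-Nd1 had 164.3 and 83.5 CPM (0.508), and mt-Nd3 had 121.7 and 70.3 CPM (0.578). The smallest differences among the 11 lower genes belonged to mt-Nd5, with 54.6 and 35.1 CPM (0.644), and mt-Nd2, with 185.0 and 132.9 CPM (0.718, 0.688 to 0.750). mt-Nd4l, the shortest of the complex I genes, had 21.3 and 11.2 CPM. These subunits form the membrane arm of complex I.

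The genes mt-Nd6 and mt-Atp8 went the other way. mt-Nd6, another membrane-arm subunit of complex I, had 225 UMIs (10.4 CPM) in the wild-type and 720 UMIs (21.6 CPM) in the Usb1-null library, a ratio of 2.08 (1.79 to 2.43). It lies on chromosome M from 13552 to 14070 and was the only one of the 13 genes annotated on the minus strand. mt-Nd6 was higher in the Usb1-null library in 12 of the 12 cell clusters in which it had at least 20 UMIs. mt-Atp8, a small subunit of ATP synthase, had 198 UMIs (9.11 CPM) and 468 UMIs (14.0 CPM). The ratio was 1.54 (1.30 to 1.83), and 8 of 10 such clusters had the same direction. They were the least abundant mitochondrial members in the wild-type library.

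**Figure D1:**
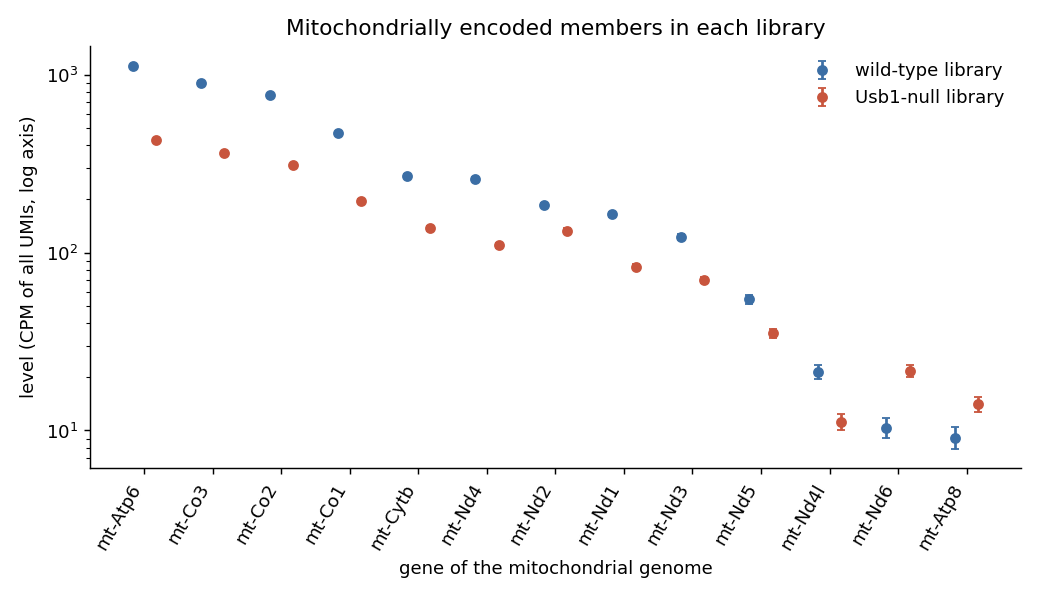
Level of each mitochondrial gene (CPM, log axis) in the wild-type (blue) and Usb1-null (red) library, ordered by the wild-type level. Points are 1 library each and bars are exact Poisson 95% intervals; 11 genes lie lower in the Usb1-null library, while mt-Nd6 (10.4 and 21.6 CPM) and mt-Atp8 (9.11 and 14.0 CPM) lie higher.

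The counts of mt-Atp8 are uncertain because this gene overlaps mt-Atp6 on the same strand. The overlap is shown because reads inside it cannot be given to one gene. It spans 43 bases, chrM:7927-7969 on the plus strand of GRCm38, with the first codon of mt-Atp6 and the last codon of mt-Atp8 in capitals.

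Overlap of mt-Atp8 and mt-Atp6: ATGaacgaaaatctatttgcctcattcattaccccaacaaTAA

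mt-Nd6 overlaps mt-Nd5 on the opposite strand by 14 bases, from 13552 to 13565, and mt-Nd4l overlaps mt-Nd4 by 7 bases. The sources do not give how such reads were counted.

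Of the 85 nuclear members, 80 had at least 100 UMIs over both libraries. Of these 80, 47 were called lower in the Usb1-null library and 0 higher, against 15% of all 15031 genes with as many UMIs that were lower and 13.2% that were higher. At 1.5-fold the counts were 25 lower and 0 higher, against 4.14% and 5.1% of all genes. Only 5 of the 80 had a log2 ratio above 0. The median log2 ratio was −0.45 over the 80 nuclear members, −0.97 over the 13 mitochondrial members and −0.01 over all genes. The 5 nuclear members under 100 UMIs were Ndufa4l2, Cox7a1, Cox7b2, Cox8b and Cox8c.

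Summed over the nuclear subunits, complex I had 2076 CPM in the wild-type and 1557 CPM in the Usb1-null library, a ratio of 0.750 (0.741 to 0.760). Complex II had 235.3 and 203.0 CPM (0.863, 0.832 to 0.895), complex III 361.8 and 267.0 CPM (0.738, 0.716 to 0.761), complex IV 980.9 and 681.5 CPM (0.695, 0.682 to 0.708) and complex V 1217 and 912.2 CPM (0.750, 0.738 to 0.762). Over all cells complex II, which has no mitochondrial subunit, thus differed least and complex IV most, and complexes I, III and V could not be told apart within counting error. In cells with 1500 to 2500 UMIs complex IV (0.791) was again lowest, but complex II (0.883, 0.827 to 0.941) was not distinguishable from complex I (0.882) or complex V (0.890). In cells with fewer than 1000 UMIs complex I (0.833) lay below complex IV (0.890). The mitochondrial subunits gave ratios of 0.569 for complex I, 0.509 for complex III, 0.403 for complex IV and 0.394 for complex V.

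**Figure D2:**
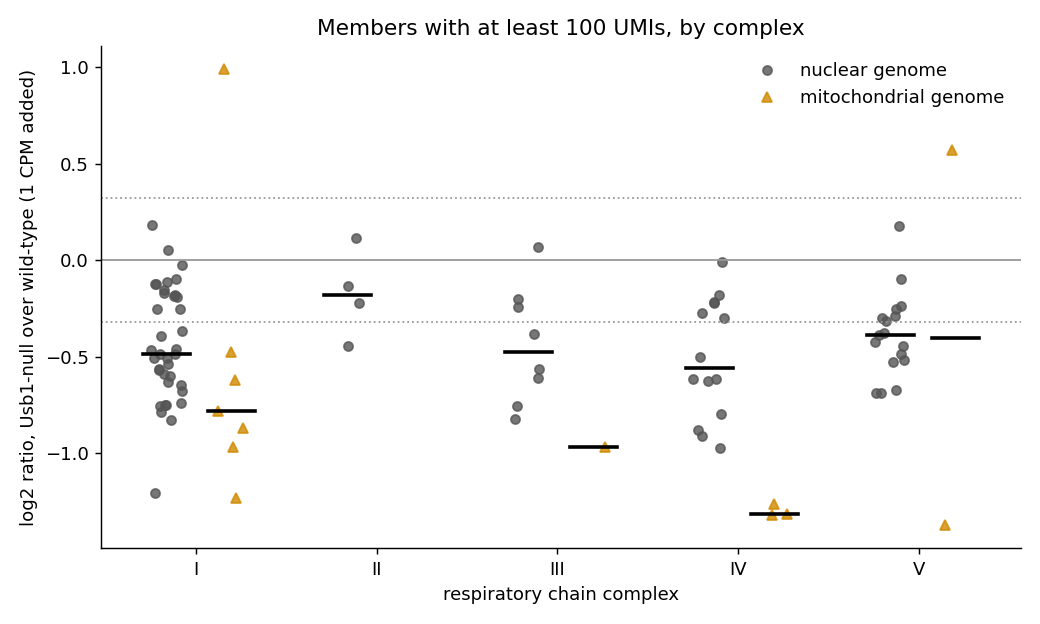
Log2 ratio of each member with at least 100 UMIs, the Usb1-null over the wild-type level after adding 1 CPM, by respiratory chain complex. Grey circles are nuclear and orange triangles mitochondrial genes, black lines are medians and dotted lines mark the fold for a call; the nuclear median is −0.18 in complex II and −0.56 in complex IV.

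In complex I, 23 of 37 nuclear members were called lower and none higher, beside 15% and 13.2% of all genes. Ndufa11, an accessory subunit of the membrane arm on chromosome 17, had the lowest ratio of all nuclear members, with 903 UMIs (41.6 CPM) in the wild-type and 581 UMIs (17.4 CPM) in the Usb1-null library (0.419, 0.377 to 0.465). Ndufs7, a core subunit that carries the last iron-sulfur cluster before ubiquinone, had 45.1 and 24.9 CPM (0.553). Ndufa13, also known as Grim19, was the most abundant nuclear member, with 301.6 and 174.2 CPM (0.578, 0.558 to 0.599), and was lower in 16 of 16 clusters. The accessory subunits Ndufb7, Ndufb8, Ndufb9, Ndufa8, Ndufa10, Ndufa12 and Ndufa2 and the NADH-binding core subunit Ndufv1 were also past 1.5-fold, with ratios from 0.581 to 0.656.

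Other complex I genes hardly differed. Ndufs4, an accessory subunit whose loss causes a mouse model of Leigh syndrome, was the second most abundant nuclear member of complex I, with 167.0 and 164.2 CPM (0.984, 0.943 to 1.03). Ndufs1, the largest core subunit, had 94.8 and 98.3 CPM (1.04, 0.981 to 1.096), and Ndufv3 had 19 and 21.7 CPM, the highest ratio of the nuclear members with at least 100 UMIs (1.14, 1.01 to 1.29). The nuclear subunits of complex I with at least 100 UMIs therefore ranged from 0.419 to 1.14. Ndufab1, the mitochondrial acyl carrier protein, had 71.4 and 66.7 CPM (0.934). Of the members on chromosome X, Ndufb11 had 69.3 and 40.8 CPM (0.588), Ndufa1 had 25.2 and 23.2 CPM (0.922) and Cox7b of complex IV had 71.1 and 62.7 CPM (0.882). All genes of chromosome X except Xist and Tsix together had a ratio of 0.991.

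In complex II, succinate dehydrogenase, the flavoprotein Sdha had 116.8 CPM in the wild-type and 100 CPM in the Usb1-null library (0.856, 0.813 to 0.902). The iron-sulfur subunit Sdhb was the only one called lower, with 50.9 and 37.1 CPM (0.729), and of the membrane anchors Sdhc had 42.0 and 38.1 CPM (0.908) and Sdhd 25.7 and 27.9 CPM (1.09, 0.976 to 1.21). In complex III, 5 of 8 members were called lower, beside 15% of all genes. Uqcrq, a small subunit of this complex, was lowest with 43.0 and 23.8 CPM (0.554), followed by Uqcr10 with 44.5 and 26.0 CPM (0.583), while Uqcr11 (0.667) and Uqcrb (0.759) lay higher. The core protein Uqcrc1 had 48.9 and 31.7 CPM (0.649), its partner Uqcrc2 had 64.7 and 54.6 CPM (0.843) and the hinge protein Uqcrh had 73.1 and 63.5 CPM (0.869). Uqcrfs1, the Rieske iron-sulfur protein, had 14.7 and 15.5 CPM (1.05, 0.911 to 1.21), an interval that includes 1.

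In complex IV, 8 of 14 members were called lower, beside 15% of all genes. Cox4i1, the common form of subunit 4 and in the wild-type library the most abundant nuclear subunit of this complex, had 204.9 and 117.5 CPM (0.574, 0.550 to 0.599). Cox5b had 38.5 and 19.98 CPM (0.519) and Cox8a had 79.6 and 42.8 CPM (0.538), and both were lower in every cluster in which they had 20 UMIs. Cox5a, Cox6a1 and Cox6b1 lay between 0.643 and 0.645. Cox7c, with 200 and 162.3 CPM (0.811), differed less than Cox4i1 at about the same wild-type level. Cox7a2 had a ratio of 0.701 and Cox6c of 0.825, and Cox7a2l, a factor that joins complexes III and IV into supercomplexes, had 0.858.

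In complex V, 10 of 17 members were called lower, beside 15% of all genes. The catalytic head showed intermediate ratios, with 176.3 and 121.9 CPM for Atp5a1, the alpha subunit (0.691), and 172.7 and 128.4 CPM for Atp5b, the beta subunit (0.743). The stalk and membrane subunits Atp5h, Atp5j2 and Atp5o were lowest, at 0.616, 0.616 and 0.619. The 3 genes Atp5g1, Atp5g2 and Atp5g3 encode the same mature subunit c, which forms the rotating ring. Atp5g1 had 57.7 and 47.1 CPM (0.816) and Atp5g2 had 82.5 and 66.9 CPM (0.811). Atp5g3 went the other way, with 45.2 and 51.3 CPM (1.13, 1.05 to 1.23), and was higher in 13 of 15 clusters with at least 20 UMIs. The other members of complex V lay between Atp5d, the delta subunit (0.692), and Atp5k, a small membrane subunit (0.930). The Atp5g3 share of the UMIs of Atp5g1 and Atp5g3 was 43.9% (41.9 to 46.0) in the wild-type and 52.2% (50.4 to 53.9) in the Usb1-null library.

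Promoters were searched for short motifs linked to respiratory genes. RefSeq promoter windows of GRCm38.p6, from 250 bases before to 50 after the gene start, were matched by symbol for 68 of the 85 nuclear members. Both strands were searched. The NRF1 motif GCGCATGCG, bound by nuclear respiratory factor 1, was in 8 of the 68 (11.8%) against 1.95% of all 27025 genes with a window. With 1 free base, as GCGCANGCG, a pattern that includes the first, it was in 20 (29.4%) against 7.03%. The YY1 motif AAGATGGCG was in 7 (10.3%) against 1.64%, the ETS core CCGGAAG in 17 (25%) against 9.93%, and the hypoxia response core ACGTG in 16 (23.5%) against 21.8%. A match is a description of the letters and not a measured site.

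Selected windows are shown for members called lower and for members not called lower. They do not reflect the share of matches in each group. Capitals mark the motif, and in the NRF1 windows the forward and reverse matches overlap by all but 1 base. Each window is read 5′ to 3′ on the strand of the gene. The NRF1 windows lie 60 bases before the start of Ndufa11 (chr17:56717692-56717720, plus strand, ratio 0.419), 162 before Cox6a1 (chr5:115349102-115349130, minus, 0.645), 42 before Atp5g2 (chr15:102671071-102671099, minus, 0.811) and 50 before Atp5k (chr5:108434431-108434459, minus, 0.930).

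Ndufa11: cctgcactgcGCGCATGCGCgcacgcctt

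Cox6a1: caggaacgggGCGCATGCGCgctctcgct

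Atp5g2: ggctccggccGCGCATGCGCagagccttc

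Atp5k: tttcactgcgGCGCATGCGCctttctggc

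The YY1 windows lie 24 bases after the start of Ndufs7 (chr10:80249463-80249491, plus, ratio 0.553), 23 after that of Atp5j2 (chr5:145191500-145191528, minus, 0.616) and 35 after that of Ndufs4 (chr13:114388045-114388069, minus, 0.984).

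Ndufs7: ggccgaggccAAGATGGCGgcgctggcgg

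Atp5j2: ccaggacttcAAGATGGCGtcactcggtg

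Ndufs4: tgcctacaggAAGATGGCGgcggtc

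Of the 38 members with a window that were called lower, 6 held the NRF1 motif and 5 the YY1 motif. Among all 68 members with a window, 8 and 7 held them.

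Nuclear members are short genes, and short genes as a whole were lower in the Usb1-null library. The median length from gene start to end, introns included, was 7370 bases over the 80 nuclear members and 27799 bases over all 13091 protein-coding genes with at least 100 UMIs. Protein-coding genes from 2500 to 5000 bases had a median log2 ratio of −0.26, with 43.0% called lower, whereas those from 20000 to 50000 bases had a median of 0.00, with 9.32% lower. Nuclear members were lower than the median of all genes in each length bin that held several of them: −0.67 against −0.25 below 2500 bases (10 members), −0.49 against −0.26 up to 5000 (15), −0.41 against −0.15 up to 10000 (30), −0.45 against −0.05 up to 20000 (15) and −0.25 against 0.00 up to 50000 (9). The longest member, Ndufs4, with 100464 bases, had −0.02. Across the 80 members, Spearman's rho of gene length and log2 ratio was 0.27, as a description over genes that share both libraries. Among 3164 other genes in the middle range of the members' levels, 27.7 to 64.6 CPM, the median was −0.05 and 16.5% were lower. The part of gene length in the ratios of the members was not tested.

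**Figure D3:**
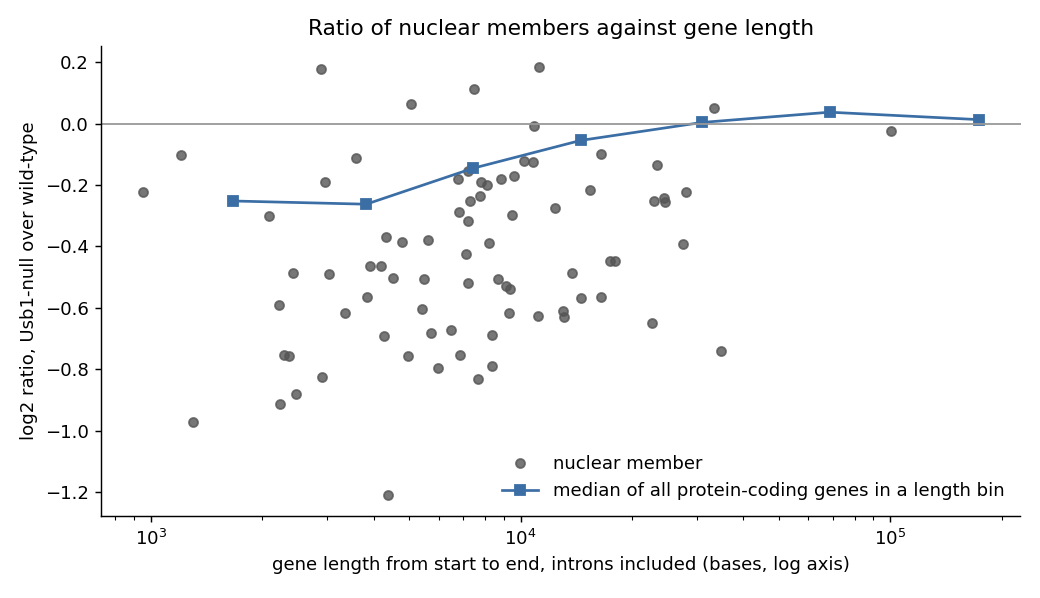
Log2 ratio (Usb1-null over wild-type) of the 80 nuclear members with at least 100 UMIs (grey) against gene length in bases (log axis), with the median of all protein-coding genes in each length bin (blue). Most members lie below the blue line, which runs from −0.25 for the shortest to 0.01 for the longest genes.

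The forms of subunits with tissue-specific paralogs were read in the clusters. Joint clustering of all cells gave 18 clusters, of which 16 held 100 or more cells of both groups. Cox6a2, the heart and skeletal muscle form of subunit 6a, had 50 and 61 UMIs in all, of which 19 and 38 were in the cardiomyocyte-like cluster, named from cardiac markers such as Tnnt2, Myl7 and Myh6. Its level there was 20.9 CPM in the wild-type and 26.1 CPM in the Usb1-null library, against at most 7.25 CPM in any other compared cluster. Of the cardiomyocyte-like cells, 3.54% (2.11 to 5.53) and 6.86% (4.71 to 9.59) held a Cox6a2 UMI, against 0.227% and 0.213% of somite-like cells, with median depths of 1514 and 2676 UMIs and of 1359 and 2446 UMIs. Cox7a1, the muscle form of subunit 7a, was also highest there, at 7.71 and 8.23 CPM. It had only 36 and 33 UMIs in all cells, and no compared cluster reached 20 UMIs over both libraries. The muscle form Cox8b had 3 and 7 UMIs in all cells, and Cox8c had none, which allows up to 3 UMIs.

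Cox6b2, known as the testis form of subunit 6b, had its highest level in the primitive erythroid-like cluster. There it had 77 UMIs (106.6 CPM) in the wild-type and 36 UMIs (86.2 CPM) in the Usb1-null library, against at most 20.2 CPM in any other compared cluster. Over all cells Cox6b2 had 293 and 213 UMIs, 13.5 and 6.38 CPM (0.473, 0.395 to 0.567), whereas within the erythroid-like cluster the ratio was 0.808 (0.529 to 1.22), an interval that includes 1. This cluster held 616 wild-type and 197 Usb1-null cells. Cox6b2 was lower in the Usb1-null library in 8 of the 8 clusters in which it had at least 20 UMIs. The part of the number of erythroid-like cells in its whole-library ratio was not tested.

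Paralogs linked to low oxygen were rare. Ndufa4l2, induced by hypoxia in many cells, had 17 UMIs (0.782 CPM) in the wild-type and 72 UMIs (2.16 CPM) in the Usb1-null library, a ratio of 2.76 (1.61 to 4.99). Its share of the UMIs of Ndufa4 and Ndufa4l2 was 0.603% (0.352 to 0.964) and 1.83% (1.44 to 2.30), while Ndufa4 itself had 129.0 and 115.7 CPM (0.897). Cox4i2, the form of subunit 4 used in lung and under low oxygen, had 80 and 122 UMIs, 3.68 and 3.65 CPM, and its share of Cox4 UMIs was 1.77% (1.40 to 2.19) and 3.02% (2.51 to 3.59), the common form Cox4i1 being lower. In the other pairs of complex IV except Cox6b, the rarer form, where detected, took from 0.173% of Cox8 UMIs for Cox8b to 4.39% of Cox6a UMIs for Cox6a2 in the wild-type library.

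The lower mitochondrial share was found in every cluster compared. The ratio of the summed mitochondrial genes was below 1 with its whole interval in 16 of 16 clusters, from 0.2999 (0.291 to 0.309) in the somite-like to 0.771 (0.730 to 0.814) in the primitive erythroid-like cluster, with a median of 0.444. In somite-like cells the level was 4304 CPM in the wild-type and 1291 CPM in the Usb1-null library. In neural progenitor-like cells it was 3565 and 1131 CPM (0.317), in cardiomyocyte-like cells 4875 and 2282 CPM (0.468), and in primitive erythroid-like cells 5858 and 4515 CPM. The nuclear members spread far less, from 0.704 (0.677 to 0.733) in cluster 8 to 0.862 (0.806 to 0.921) in cluster 12, with 16 of 16 below 1.

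The balance between the genomes therefore varied between clusters. Mitochondrial UMIs for each nuclear UMI were 1.02 in wild-type and 0.391 in Usb1-null somite-like cells, and 0.954 and 0.776 in surface ectoderm-like cells. In primitive erythroid-like cells they were 0.991 and 0.994, as the nuclear ratio there, 0.769 (0.728 to 0.811), lay within the interval of the mitochondrial one. In the other 15 compared clusters the mitochondrial ratio was lower than the nuclear ratio. The cardiomyocyte-like cluster had high nuclear levels, 6026 and 4494 CPM, while the highest wild-type nuclear level, 6930 CPM, was in cluster 8, whose wild-type cells had a median of 709 UMIs.

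**Figure D4:**
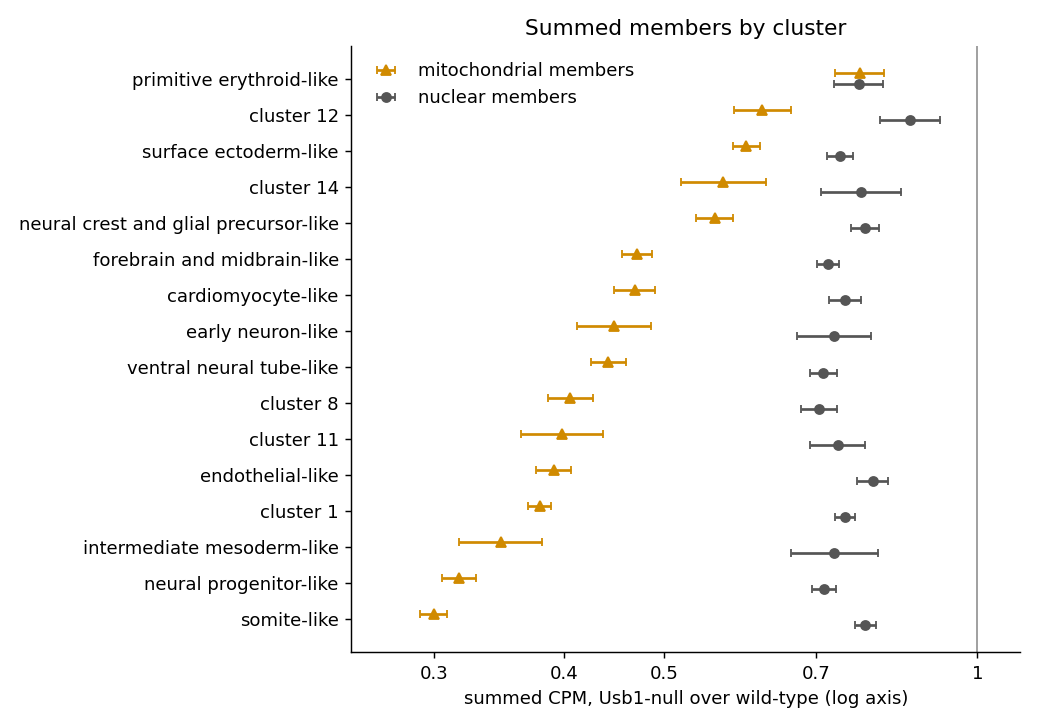
Ratio of summed CPM, Usb1-null over wild-type (log axis), of the mitochondrial (orange triangles) and nuclear members (grey circles) in the 16 compared clusters. Bars are 95% intervals for counting error; mitochondrial ratios run from 0.2999 to 0.771 and nuclear ratios from 0.704 to 0.862, and the pair meets only in the primitive erythroid-like cluster.

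One small cluster stood apart. Cluster 16 held 56 wild-type and 55 Usb1-null cells, too few to enter the comparison, and was led by Alb, Apoa2, Cps1 and Mup3, genes of liver, some of which are typical of mature liver. Its mitochondrial genes had 5412 CPM in the wild-type and 23236 CPM in the Usb1-null library (4.29, 3.86 to 4.78), and its nuclear members 5310 and 9294 CPM (1.75, 1.55 to 1.98). Without this cluster the whole-library ratios were 0.427 for the mitochondrial and 0.741 for the nuclear members.

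Depth per cell bears on these levels, since the libraries differed in it. In both libraries the level of the nuclear members was highest in the shallowest bin, 500 to 750 UMIs, at 6885 CPM (wild-type) and 6249 CPM (Usb1-null). Nuclear members were lower in the Usb1-null library in each of 7 depth bins, for instance 4541 and 3976 CPM in cells with 1500 to 2000 UMIs. Mitochondrial members were lower in the 5 bins from 1000 UMIs up, for instance 3953 and 1979 CPM between 1500 and 2000 UMIs, but higher in both bins below 1000 UMIs. In cells with fewer than 1000 UMIs, 4973 in the wild-type and 612 in the Usb1-null library, the mitochondrial level was 5123 and 5981 CPM (1.17, 1.12 to 1.21). Of the mitochondrial UMIs of these shallow Usb1-null cells, 45.3% came from 31 cells of cluster 16. Without that cluster the ratio was 0.669 (0.635 to 0.704). In cells with 1500 to 2500 UMIs the median depth was 1824 UMIs over 4107 wild-type and 1975 UMIs over 4944 Usb1-null cells. There the ratios were 0.485 for mitochondrial and 0.862 for nuclear members, and 27 of 78 nuclear members were called lower, against 13.9% of all genes, and 2 higher, against 15.8%.

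**Figure D5:**
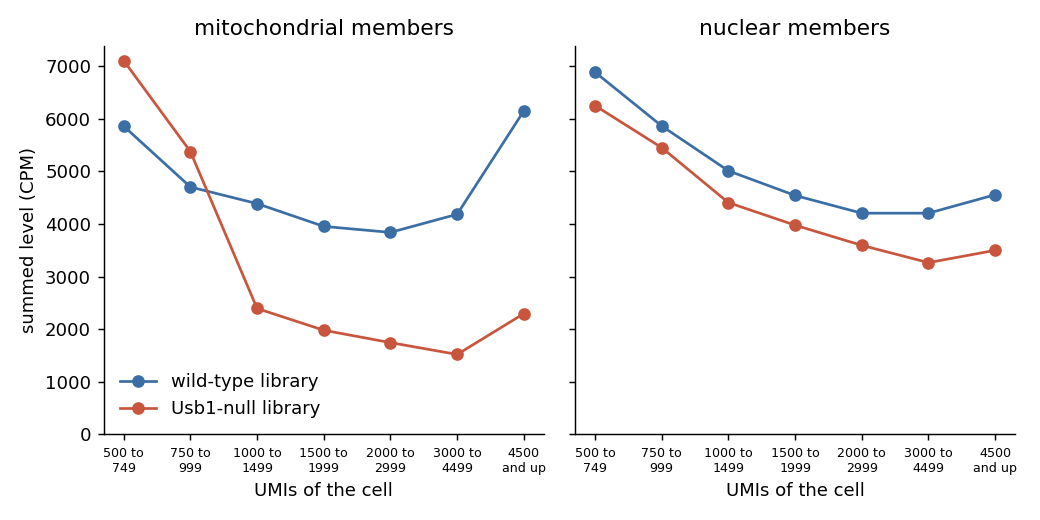
Summed level (CPM) of the mitochondrial (left) and nuclear members (right) in cells binned by their UMIs, in the wild-type (blue) and Usb1-null (red) library. Points are sums over the cells of a bin; the Usb1-null line lies below the wild-type line except for mitochondrial members in cells with fewer than 1000 UMIs.

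Per cell, the median mitochondrial share was 0.309% in the wild-type and 0.105% in the Usb1-null library, and the median share of nuclear members 0.479% and 0.352%. At least 1 mitochondrial UMI was found in 90.7% and 82.6% of cells. With each cell thinned to 800 UMIs, which left out 2689 wild-type and 304 Usb1-null cells, these were 84.3% and 57.4%. Cells with more than 5% mitochondrial UMIs numbered 16 and 29 and held 0.977% and 5.56% of the mitochondrial UMIs. Without them the mitochondrial ratio was 0.419 (0.414 to 0.423).

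Genes that serve the same organelle without being subunits differed less. Of the 44 assembly factors of the complexes with at least 100 UMIs, 10 (22.7%) were called lower and 3 higher, with a median log2 ratio of −0.14, beside the 15% and 13.2% of all genes. The furthest was Sco2, which delivers copper to complex IV, with 14.5 and 8.18 CPM. Of 31 genes for the transcription, processing and translation of mitochondrial RNA, 3 (9.68%) were lower and 4 higher, with a median of 0.01, which is near the shares of all genes. Within this list the elongation factor Tufm had 21.8 and 10.2 CPM (0.466, 0.404 to 0.536). Tfam, which packages and transcribes mitochondrial DNA, had 27.8 and 35.4 CPM (1.28, 1.16 to 1.41), Lrpprc, which stabilises mitochondrial messenger RNA, had 130.1 and 163.9 CPM (1.26, 1.20 to 1.32), and Polrmt, the mitochondrial RNA polymerase, had 17.99 and 14.6 CPM (0.811).

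The median of the cytoplasmic ribosomal protein genes over all cells was as low as that of the nuclear members, and that of the mitochondrial ribosomal proteins was less so. Of 78 mitochondrial ribosomal proteins, 37 were lower and none higher, with a median of −0.30, and Mrps12 was furthest with 43.8 and 21.7 CPM. Of 80 cytoplasmic ribosomal proteins, 64 were lower and none higher, with a median of −0.50 and a summed level of 25841 and 18087 CPM (0.6999, 0.697 to 0.702), and Rpl29 was furthest with 125.0 and 57.8 CPM. These too are short and abundant genes. Of 25 genes of protein import, 12 were lower and none higher, the furthest being Timm50 of the inner membrane translocase (62.7 and 36.7 CPM). Of 16 carriers and electron carriers 7 were lower and none higher, the furthest being the electron transfer flavoprotein Etfb (23.2 and 15.5 CPM). Of 17 citrate cycle genes 3 (17.6%) were lower, near the 15% of all genes, and none higher, the furthest being Idh3g of isocitrate dehydrogenase (23.4 and 14.2 CPM). These list medians were nearer to 0 in cells with 1500 to 2500 UMIs, at −0.18 for cytoplasmic and −0.14 for mitochondrial ribosomal proteins, −0.12 for protein import and −0.018 for the carriers, where the nuclear members had −0.22. Of the cytoplasmic ribosomal proteins 16 of 80 were then called lower, of the mitochondrial ones 20 of 78, of the import genes 3 of 25 and of the carriers 6 of 15. Called higher were 0, 3, 1 and 0 genes of these lists. The share of all genes called lower in these cells was 13.9%, and 15.8% were called higher.

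Regulators and hypoxia genes had medians above 0. Of 15 coactivators and transcription factors linked to mitochondrial biogenesis, 5 were called higher and none lower, with a median of 0.23. Over all genes, 13.2% were called higher and 15% lower. The 5 included Myc with 9.34 and 14.5 CPM (1.56, 1.32 to 1.84). Among cells with 1500 to 2500 UMIs, 5 of 14 genes of this list were higher and 1 lower, with a median of 0.24. Nrf1, the factor behind the motif above, had 406.9 and 377.8 CPM (0.929), and the coactivator Ppargc1a had 14.3 and 14.7 CPM (1.03). Of 9 hypoxia response genes tied to mitochondria, 4 were higher and none lower, with a median of 0.13. In cells with 1500 to 2500 UMIs 5 of 8 were higher, against 15.8% of all genes, with a median of 0.57. Bnip3, a receptor for the removal of mitochondria, had 27.1 and 67.8 CPM (2.50, 2.28 to 2.74), and Pdk1, which holds pyruvate back from the citrate cycle, had 95.3 and 144.2 CPM (1.51, 1.44 to 1.60). Ldha, lactate dehydrogenase, had 281.7 and 290.6 CPM (1.03). Of 6 genes taken as signs of RNA quality or handling, 1 was higher and 2 lower over all cells. Fos, an immediate early gene, was furthest with 3.64 and 5.72 CPM. In cells with 1500 to 2500 UMIs 2 of 5 were lower and none higher, against 13.9% and 15.8% of all genes. Their median there was −0.29 and the summed ratio of the list 0.819 (0.812 to 0.827). Over all cells these were 0.058 and 1.018 (1.013 to 1.024), in the opposite direction. The part of these genes, of sex, of embryo size and of depth in the levels of the members was not tested.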

How the data were processed

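The authors deposited raw UMI counts, without normalisation, as 1 gene-by-barcode matrix per library. The matrix headers and the study's methods name Cell Ranger 6.1.2, whereas the submitters' processing notes name Cell Ranger 2.1.1 and mm10. Whether intronic reads were counted was not stated, and would change the counts of long genes more than those of short genes.

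The study's cell filter was applied: between 200 and 6000 genes, and a mitochondrial content under 30%. Of the 15162 wild-type barcodes 15161 passed, and of the 13034 Usb1-null barcodes 13018. The filter did not give the cell numbers that the study states after quality control: the study's wild-type number is lower, and its Usb1-null number is that of all barcodes. UMIs were added up over the cells of a library or cluster and scaled to CPM of all UMIs. Ratios put the Usb1-null over the wild-type value, and 1 CPM was added to both before taking log2. Genes needed 100 UMIs over both libraries to be counted. With 1 library per group no test was run. Levels have exact Poisson, ratios exact conditional binomial and shares Clopper-Pearson 95% intervals (SciPy 1.17.1), which cover counting error only. Scripts were tested on simulated counts.

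For clusters, 2000 variable genes, without mitochondrial and ribosomal genes, gave 30 components, corrected for library by Harmony rewritten in NumPy 2.4.6, and Leiden clusters at resolution 0.4 (Scanpy 1.11.5). Names ending in "-like" needed 4 raised markers and a marker among the 10 leading genes, a rule set after clusters were seen; names were rebuilt here and may differ from the study's. Doublets, called by Scrublet in 1025 wild-type and 560 Usb1-null cells, were kept in the main analysis. Gene positions came from GENCODE M21 (GRCm38). The members and lists were chosen with earlier results of these data known. Genes named were all mitochondrial members, in each complex the highest and lowest ratios and the 2 highest levels, members past 1.5-fold, members on chromosome X, paralog pairs and the furthest gene of each list. Ndufs1, Atp5k, Lrpprc, Tfam, Polrmt, Nrf1, Ppargc1a, Pdk1, Ldha and Malat1 were added after their values were seen. Ndufb1-ps, left out by its symbol, had 33.4 and 36.1 CPM.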

Additional observations from a re-analysis of the deposited data

Results flagged for a closer look

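In cluster 16, led by the liver genes Alb, Apoa2, Cps1 and Mup3, the summed members differed between the libraries in the direction opposite to the whole embryo. The mitochondrial ratio, Usb1-null over wild-type, was 4.29 (3.86 to 4.78) and the nuclear ratio 1.75 (1.55 to 1.98), whereas both ratios were below 1 in the 16 compared clusters. The difference between this cluster and the others was not tested, as there was 1 library per group. The cluster held 56 wild-type and 55 Usb1-null cells, and the median cell held 1213 UMIs in the wild-type and 975 in the Usb1-null library.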

How the results depend on the processing

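No paired analysis was possible because there was 1 library per group, and no replicate could be left out. Several alternatives gave mitochondrial, nuclear and mitochondrial-to-nuclear ratios beyond the counting interval of the reported value. The mitochondrial ratio (0.439) was 0.452 with no cell filter, 0.443 with a minimum of 1000 genes, 0.431 with a mitochondrial limit of 10%, 0.449 with doublets removed, 0.485 in cells with 1500 to 2500 UMIs, 0.434 on totals without mitochondrial and ribosomal protein UMIs and 0.454 when both libraries were given the cluster shares of the wild-type. The nuclear ratio (0.744) was 0.799 with a minimum of 1000 genes, 0.862 in cells with 1500 to 2500 UMIs, 0.750 with size factors by the median of ratios, 0.736 on totals without mitochondrial and ribosomal protein UMIs and 0.750 with wild-type cluster shares. The ratio of both genomes (0.590) was 0.604 with no cell filter and with doublets removed, 0.555 with a minimum of 1000 genes, 0.580 with a mitochondrial limit of 10%, 0.562 in cells with 1500 to 2500 UMIs and 0.606 with wild-type cluster shares. All of these stayed below 1. Nuclear members called higher numbered 1 with a minimum of 1000 genes, 2 in cells with 1500 to 2500 UMIs and 1, Ndufa4l2, with no minimum of UMIs, and those called lower 27 in cells with 1500 to 2500 UMIs and 25 at 1.5-fold, against 47. The ratio of the mean share of nuclear members per cell was 0.729 unthinned.

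Alternatives chosen after seeing the data were as follows. Without cluster 16 the mitochondrial ratio was 0.427 and the ratio of the genomes 0.576. In cells with at least 1000 UMIs the nuclear ratio was 0.784 and the ratio of the genomes 0.563. In cells with fewer than 1000 UMIs the mitochondrial ratio was 1.17 and the ratio of the genomes 1.27, both reversed, the nuclear ratio 0.919, with 24 of 74 members lower and 11 higher, against 29.4% and 16.4% of all genes. Without cluster 16 in these shallow cells they were 0.669, 0.793 and 0.843, with 34 of 74 members lower and 6 higher, against 28.6% and 17.3% of all genes. Also reversed in the shallow cells were complex III (1.07) and complex V (1.03) and the log2 ratios of mt-Nd1 (0.41), mt-Nd2 (1.22), mt-Nd3 (0.45), mt-Nd4 (0.36), mt-Nd4l (0.36), mt-Nd5 (0.76), mt-Cytb (0.76), mt-Co1 (0.17), mt-Co2 (0.035), mt-Co3 (0.031), Ndufa8 (0.27), Ndufa10 (0.021), Ndufb9 (0.14), Cox6a1 (0.28), Cox7a2 (0.51) and Tufm (0.097). Without cluster 16, mt-Nd2 (0.31), mt-Nd5 (0.21), Ndufa10 (0.081), Ndufb9 (0.031) and Cox7a2 (0.40) remained above 0 there. The cause of the remaining differences was not tested.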
